A study of Mus musculus with 33 samples.

Results

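Brain RNA of Mcoln1-/- (KO) mice was compared with that of littermate controls at 7 months of age, the oldest of the ages sampled. The libraries were chosen by age and genotype, which gave 10 of the 33 libraries of the series, 5 KO and 5 control, each from the brain of 1 mouse. The study used these mice as a model of mucolipidosis type IV (MLIV), an inherited lysosomal storage disease of the brain, and sequenced brain RNA at 1, 2, 3 and 7 months of age. All mice were labelled C57Bl/6J, and the study's methods state that females and males were both used. The KO mice were animals 21, 66, 68, 69 and 72, in which both Mcoln1 alleles are disrupted in every cell of the body. Of the controls, animals 12, 29 and 71 were labelled Mcoln1+/- and animals 74 and 75 Mcoln1+/+. The data column of control 12 is named for 8 months of age, whereas its label gives 7 months.

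Mcoln1 encodes TRPML1 (mucolipin 1), a cation channel of late endosomes and lysosomes that lets calcium leave these organelles. Its loss leaves undigested lipids in lysosomes, and the brain disease is known for thin myelin, activated microglia and astrocytes, and neurological decline. Microglia are the resident macrophages of the brain, oligodendrocytes make its myelin, and interferons (IFNs) are secreted proteins that switch on a wide set of antiviral genes in the cells that sense them. In bulk RNA a change in the number of cells of a type cannot be told apart from a change in RNA per cell.

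RNA was read from the 3′ ends of transcripts by a bulk form of MARS-seq. Levels are given in CPM, the count of a gene relative to the TMM-scaled size of its library, and are compared between libraries. CPM is not scaled for transcript length, so where a list is said to be led by a gene, that is its gene of highest CPM and no comparison of transcript numbers. The libraries fell into 2 sets by depth. The deeper set, above 3500000 total counts, held controls 12 (5682558), 29 (5256042) and 74 (4066235) and KO 21 (6047257) and KO 66 (4375267). The shallower set held controls 71 (2245117) and 75 (2874692) and KO 68 (2282126), KO 69 (2527369) and KO 72 (2601150). Since both genotypes were in both sets, the set entered the fit of KO against control as a term. A single count corresponded to 0.149 CPM in KO 21, the deepest library, and to 0.474 CPM in KO 68, where 1 count weighed most.

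Between the sets themselves, 1586 of 11227 tested genes (14.1%) were called, 1227 higher and 359 lower in the deeper libraries. The difference followed transcript length: across 10830 genes, which are not independent replicates, the Spearman correlation of length with the deeper-over-shallower difference was 0.38. KO 21 stood furthest out. Its median deviation from the mean of the 10 libraries was 0.35 on the log2 scale in the longest of 5 equal groups of genes and −0.27 in the shortest, a span of 0.61. KO 68, KO 69 and KO 72 leaned the other way, with spans of −0.45, −0.30 and −0.39, while KO 66 (0.03) and the 5 controls (0.02 to 0.18) lay between them. The Spearman correlation of length with the KO-over-control difference of the joint fit was −0.11.

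**Figure D1:**
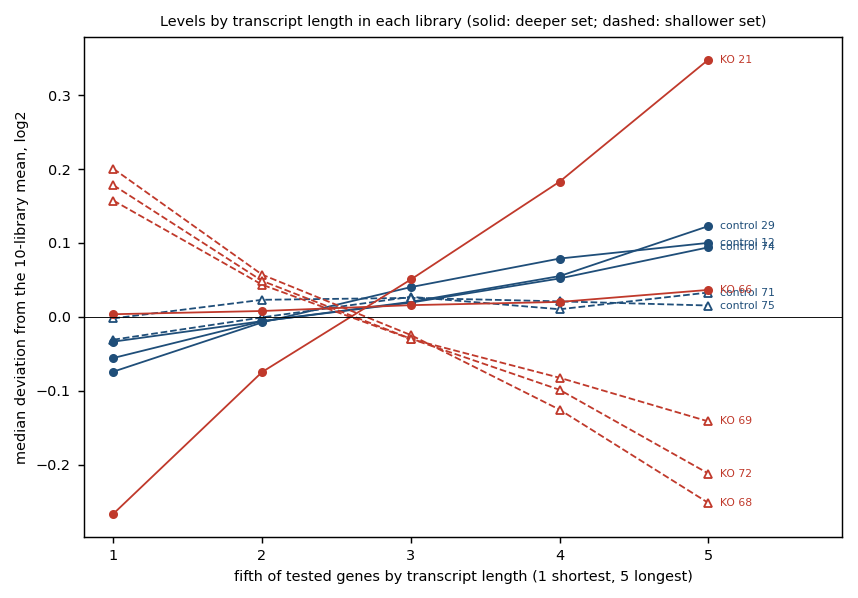
Median deviation of each library from the 10-library mean (log2, y axis) in 5 groups of tested genes ordered by transcript length (x axis), with solid lines for the deeper and dashed lines for the shallower set, controls in blue and KO in red. KO 21 reaches 0.35 in the longest group and KO 68 −0.25, while the controls stay between −0.07 and 0.12 in the shortest and longest groups.

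Single genes also set libraries apart. Gapdh, a glycolytic enzyme, was read at 665 CPM in control 74, 687 CPM in KO 21 and 689.7 CPM in KO 69 but at 17.0 to 30.5 CPM in the other 7 libraries, whatever their genotype or set. Xist, the RNA of the inactive X chromosome, had 48 and 36 counts in controls 12 and 29 and 22, 9 and 7 in KO 66, KO 68 and KO 69, and 0 in the other 5, so both groups held mice of both kinds. Of the Y-linked genes Ddx3y, Eif2s3y and Kdm5d, KO 66 held 0, 1 and 0 counts, KO 68 1, 1 and 0, and KO 69 2, 2 and 1. Beside its 7 counts of Xist, this leaves the kind of KO 69 less clear.

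Of the 11227 genes tested with edgeR's quasi-likelihood test, 121 (1.08%) were called higher and 14 (0.125%) lower in KO, 135 (1.2%) in all. A call required a 1.5-fold change or more together with a p of 0.05 or less after Benjamini-Hochberg adjustment. Given the sizes of the gene lists used below, a list with no call is near this share of 1.2%. It is no result about the members of that list. The median log2 fold-change of all tested genes was −0.0029. By adjusted p alone 139 genes were higher and 41 lower. Of the genes called, 87 of the 121 higher and 2 of the 14 lower changed by more than 2-fold. In 99 of the 121 every KO library lay above every control, against 1.37% of all tested genes, and in 8 of the 14 every KO library lay below, against 0.757%. All 135 had the same sign in the deeper and in the shallower set, and 125 reached 0.01, the smallest 2-sided p that an exact permutation of the genotypes within the sets allows. Over all 11227 tested genes 435 reached it. The 135 were selected on the same libraries, so neither count is an independent test. Without KO 21 the count was 206 (177 higher, 29 lower), which held 124 of the 135. With the length profile of each library as a further term, a fit chosen after the data were seen, it was 190 (157 higher, 33 lower), which held 130 of the 135. Without control 74, KO 21 and KO 69, the libraries with high Gapdh, it was 204 (170 higher, 34 lower), which held 122.

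**Figure D2:**
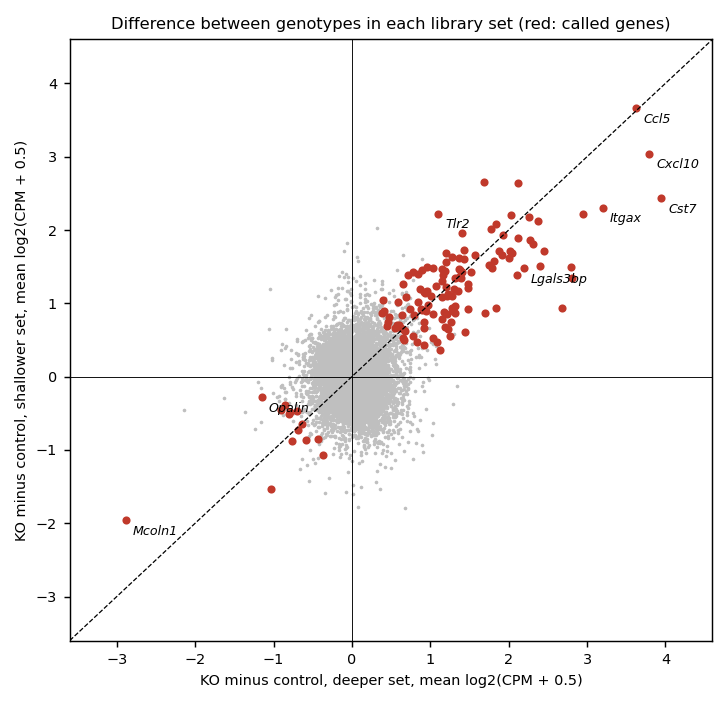
KO minus control difference of mean log2(CPM + 0.5) in the deeper libraries (x axis, 3 controls and 2 KO) against the shallower libraries (y axis, 2 controls and 3 KO) for all 11227 tested genes, with the 135 called genes in red and the dashed line at equality. Called genes have the same sign in both sets, Mcoln1 lies at −2.89 and −1.96, and Opalin (−1.15 and −0.28) and Tlr2 (1.10 and 2.22) lie away from the line.

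Mcoln1 itself (chromosome 8, 3500457 to 3515232, plus strand, GRCm38) was read at 38.7, 43.0, 51.3, 40.3 and 52.1 CPM in controls 12, 29, 71, 74 and 75. In KO 21, 66, 68, 69 and 72 it was at 5.95, 4.29, 10.4, 14.3 and 14.4 CPM. No KO library came near the controls, and the 3 shallower KO libraries were the higher ones. The level fell by 2.45 ± 0.17 on the log2 scale (SE, n = 5 against 5, adjusted p = 1.16e-08 by edgeR). The sources used here do not say where the disrupted part of the gene lies relative to the 3′ reads, so the remaining reads say nothing about the protein. None of the 18 other tested genes that lie within 5 Mb of Mcoln1 was called, and their log2 fold-changes ran from −0.51 (Pcp2, a Purkinje cell gene) to 0.35 (Stxbp2, a protein of vesicle fusion).

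The largest rises were in chemokines and in genes of phagocytic cells. Cxcl10 (chromosome 5, 92346638 to 92348889), a chemokine induced by interferons, was at 2.03, 1.86, 4.62, 3.13 and 2.78 CPM in controls 12, 29, 71, 74 and 75. It was at 31.0, 47.2, 36.9, 30.4 and 32.8 CPM in KO 21, 66, 68, 69 and 72. The groups lay far apart, with a 13.7-fold rise (log2 3.78 ± 0.21 SE, adjusted p = 2.21e-09). Ccl5 (chromosome 11, 83525778 to 83530518), a chemokine that attracts T cells and monocytes, had 1.86, 1.86, 2.31, 2.41 and 2.08 CPM in the same controls and 25.7, 36.8, 48.3, 32.5 and 24.2 CPM in the KO mice. The controls were close together, even the lowest KO mouse was far above them, and the rise was 15.3-fold (adjusted p = 2.21e-09). Ccl12, Ccl4, Ccl6 and Ccl3, picked out after their values were seen, rose 4.71-fold, 6.97-fold, 2.90-fold and 4.80-fold, the KO libraries of each above all controls. Each control held 8 to 13 counts of Cxcl10, 5 to 11 of Ccl5, 5 to 16 of Ccl12, 1 to 6 of Ccl4 and 2 to 7 of Ccl3. These genes passed the filter on low counts through the KO libraries, so their folds are inexact. Ccl3 was too low to be tested without control 12, 29 or 74 or KO 21 or 66, and Ccl6 was not called in the deeper libraries alone (adjusted p = 0.0577). Of chemokine and purine receptors and their kin, 1 of 9 tested was called (median 0.41): Gpr84, a receptor for medium-chain fatty acids, rose 2.83-fold (adjusted p = 0.00302), though in the deeper libraries alone it was not called (adjusted p = 0.148). Each control held 3 to 11 counts of Gpr84, which also passed the filter through the KO libraries.

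**Figure D3:**
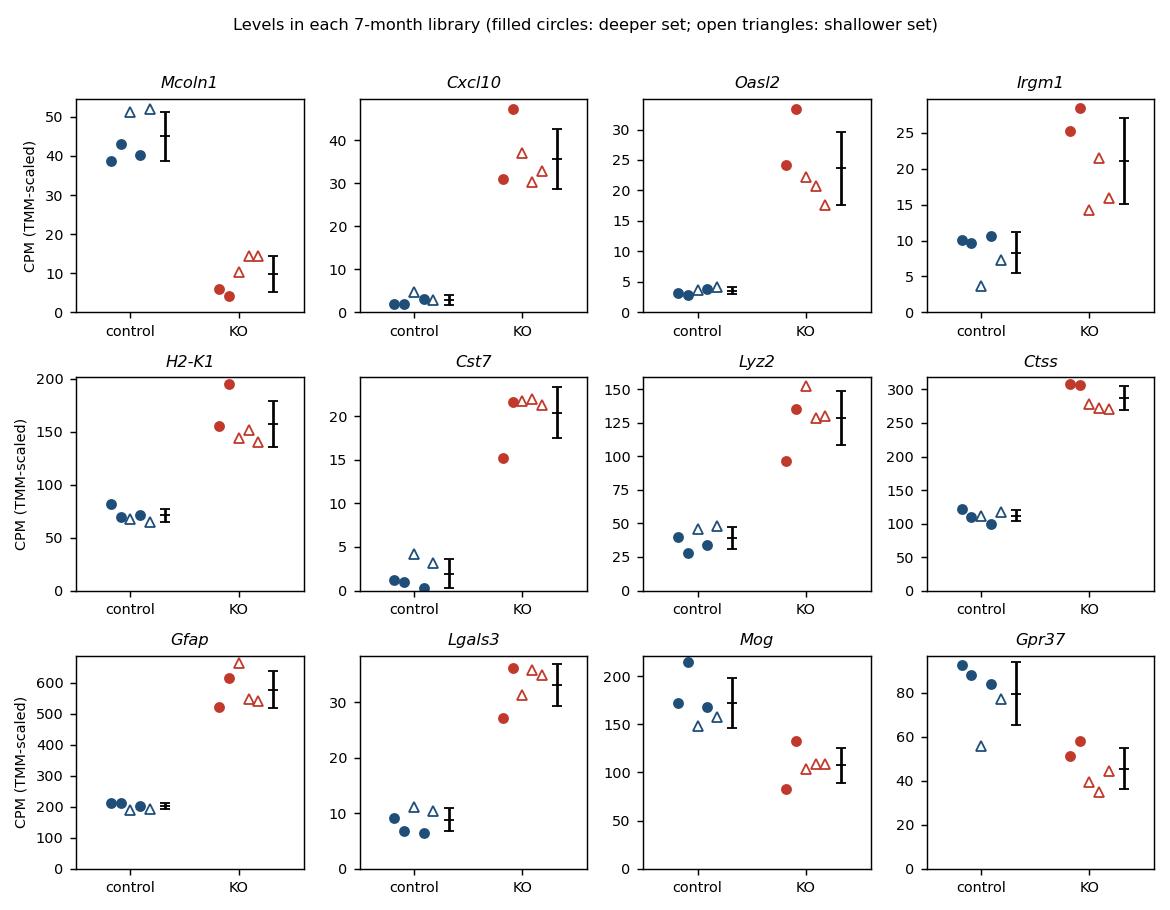
Level of 12 genes in each library (y axes, TMM-scaled CPM from 0), controls in blue and KO in red, with filled circles for the deeper and open triangles for the shallower set and black bars for mean ± SD (n = 5). The groups are apart in each panel except Gpr37, in which control 71 at 55.9 CPM lies below KO 66 at 58.1 CPM.

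Many interferon-stimulated genes rose and none of those tested was called lower. Of the complement and IFN-related genes that the study listed, 12 of 16 tested were called higher (median 1.41), a list chosen on these samples and therefore not independent evidence of its direction. Outside it, the list of other IFN-stimulated genes had 32 tested members, of which 18 were called higher and 0 lower, with a median log2 fold-change of 0.91 and 31 members above 0. Oasl2, a member of the oligoadenylate synthetase family of antiviral proteins, was at 3.21, 2.79, 3.70, 3.86 and 4.17 CPM in controls 12, 29, 71, 74 and 75. In KO 21, 66, 68, 69 and 72 it was at 24.3, 33.4, 22.3, 20.7 and 17.6 CPM. Both deeper KO libraries were above the shallower ones, and the rise was 7.34-fold (adjusted p = 1e-08). Irf7, the transcription factor that amplifies type I IFN production, rose from 7.81 ± 2.29 to 36.2 ± 6.53 CPM (SD, n = 5, 4.53-fold). Rtp4, an IFN-induced chaperone, rose 4.95-fold and Ifi27l2a, an IFN-induced mitochondrial membrane protein, 4.02-fold. The KO mice differed widely in Ifi27l2a, from 29.3 CPM in KO 21 to 110.4 CPM in KO 68, and its level was lower in the deeper set as a whole (log2 −1.02).

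Further genes of the lists were too low to test. Of the 108 list members present in the table that did not pass the filter on low counts, 15 (13.9%) had every KO library above every control and 0 every KO library below. Over all 2731 genes that did not pass the filter the share above was 2.05%. Of the 15, 9 stood in the lists of IFN genes and 6 (F13a1, Fcgr4, Igf1, Ms4a7, Ptprc and Tlr4) in lists of myeloid cells and their receptors. Among the 9, picked out after their values were seen, the summed counts of Eif2ak2, the double-stranded RNA kinase PKR, were 49 in the 5 controls and 125 in the 5 KO mice. Those of Mx1, an antiviral GTPase, were 3 and 32, those of Oasl1 15 and 64 and those of Phf11b 26 and 101. Mx1 and Mx2, also among the 9, are IFN-related genes that the study listed from these samples, so they are not independent evidence.

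All 5 tested IFN-inducible GTPases, enzymes of the defence against intracellular microbes, were called higher, with a median log2 fold-change of 1.46. Irgm1 had 10.1, 9.67, 3.70, 10.6 and 7.29 CPM in controls 12, 29, 71, 74 and 75 and 25.3, 28.5, 14.2, 21.5 and 16.0 CPM in KO 21, 66, 68, 69 and 72. Every KO mouse was above every control, and within both groups the deeper libraries were the higher ones (2.75-fold, adjusted p = 9.17e-06). Gbp3 rose 3.03-fold, Gbp2 2.80-fold and Igtp 2.53-fold, with no overlap between the groups in any of them. The remaining one tested was Irgm2. Gbp5, Gbp7, Ifi47 and Iigp1 were too low to test, and their groups overlapped. Their summed counts in controls and KO mice were 21 and 29, 17 and 35, 32 and 63, and 3 and 18.

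The promoters of these genes were searched for the core of the interferon-stimulated response element, a sequence bound by IRF factors in the type I IFN response, written GAAANNGAA with N for any base and taken on both strands. Promoters were RefSeq sequences of GRCm38.p6 from 250 bases before to 50 bases after the transcript start, and 89 of the 121 genes called higher had one. The core was present in 23 of the 89 (25.8%), in 717 of the 8608 tested genes with a promoter (8.33%), in 8.56% of all 32851 promoters and in 0 of the 10 genes called lower that had a promoter. Irgm1, Igtp, Gbp2, Gbp3 and B2m all held it. Oasl2, Irf7, Rtp4, Ifi27l2a, H2-K1, H2-D1 and Psmb8, which also rose, were not among the 23. Some of them may have had no promoter in the search. The stretches shown are thus from genes picked as holders of the core, with the core in capitals and the strand of the gene read 5′ to 3′. In Gbp2 and Gbp3 the core lies on the opposite strand and is printed as its reverse complement. In Gbp3 and Irgm1 a second match overlaps the one shown.
B2m, chr2:122147523-122147581, plus strand: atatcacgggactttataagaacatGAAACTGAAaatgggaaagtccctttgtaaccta
Irgm1, chr11:48871411-48871469, minus strand: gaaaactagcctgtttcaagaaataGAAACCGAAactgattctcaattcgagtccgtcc
Igtp, chr11:58199497-58199555, plus strand: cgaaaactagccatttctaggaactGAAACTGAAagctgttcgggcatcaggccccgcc
Gbp2, chr3:142620580-142620638, plus strand: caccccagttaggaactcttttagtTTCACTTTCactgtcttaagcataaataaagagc
Gbp3, chr3:142559975-142560033, plus strand: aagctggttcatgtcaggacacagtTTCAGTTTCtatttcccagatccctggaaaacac

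The core shown lay 139 bases before the transcript start in B2m and 24, 34, 58 and 44 bases before it in Irgm1, Igtp, Gbp2 and Gbp3. GAGGAAGT, a site of the kind bound by PU.1, a factor of myeloid cells, was in 7 of the 89 (7.87%) against 3.32% of those tested and 3.20% of all promoters. TCACGTGA, an E-box of the kind bound by TFEB, which drives lysosomal genes, was in 2 of the 89 (2.25%) against 2.22% and 0.974%. A match is a run of letters and not a binding site, and the absence of one says nothing about the factor.

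Of 17 tested genes that present peptides on MHC class I 7 were called higher and 0 lower, with a median log2 fold-change of 0.42. H2-K1, a classical class I heavy chain, was at 81.2, 68.98, 67.9, 71.3 and 64.9 CPM in controls 12, 29, 71, 74 and 75 and at 155, 195, 144, 152 and 140.3 CPM in KO 21, 66, 68, 69 and 72. All KO mice were above all controls and KO 66 was the highest (2.28-fold, adjusted p = 3.36e-08). H2-D1 rose 2.17-fold and B2m, the light chain shared by class I molecules, 2.42-fold. Psmb8, a subunit of the immunoproteasome that cuts the peptides, rose from 23.4 ± 5.95 to 68.9 ± 16.5 CPM (2.70-fold). The class I heavy chain genes are near-identical in stretches, so reads could be split between copies. For MHC class II, which presents peptides to helper T cells, 0 of 6 tested members were called (median 0.31), and without KO 21 H2-Aa was (log2 0.65). Of these Cd74, the invariant chain, was at 20.2 ± 4.31 CPM in controls and 27.5 ± 7.49 CPM in KO (adjusted p = 0.663) and H2-DMa at 30.1 ± 6.94 and 33.6 ± 7.23 CPM (adjusted p = 0.947), with overlapping groups.

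Microglia and other myeloid cells gave the next block. Of the markers of disease-associated microglia, the state that microglia take up around damaged tissue, 11 of 22 tested were called higher and 0 lower (median log2 fold-change 0.62), and of general myeloid markers 8 of 16 (median 0.71). The 16 tested homeostatic microglial markers had a median of 0.28. Cst7, a cystatin that inhibits lysosomal cathepsins, had 1.18, 0.930, 4.16, 0.241 and 3.13 CPM in controls 12, 29, 71, 74 and 75. It had 15.2, 21.7, 21.8, 21.9 and 21.3 CPM in KO 21, 66, 68, 69 and 72. The shallower controls 71 and 75 were the highest of the controls, KO 21 was the lowest of the KO mice, and the rise was 11.7-fold (log2 3.55 ± 0.29 SE, adjusted p = 7.35e-08). Each control held 1 to 9 counts of Cst7, which passed the filter on low counts through the KO libraries, so this fold is inexact. The log2 fold-change of Cst7 was 4.40 in the deeper and 2.60 in the shallower libraries alone, and it was called in both. Itgax, the integrin CD11c, rose 14.2-fold and Clec7a, the beta-glucan receptor Dectin-1, 8.72-fold, with log2 fold-changes across the settings that tested them of 2.99 to 4.23 and 2.84 to 3.33. Both were near the limit of detection in the controls, at 0.433 ± 0.339 and 0.496 ± 0.281 CPM (SD, n = 5). No control held more than 3 counts of either, so both passed the filter on low counts through the KO libraries. Their folds are therefore inexact.

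Lyz2, lysozyme of phagocytes, rose from 39.2 ± 8.42 to 129 ± 20.3 CPM (3.16-fold, adjusted p = 1.49e-08). Cd52, a small surface glycoprotein of immune cells, rose 3.71-fold, and Mpeg1, which makes the pore-forming perforin-2 of macrophages, 4.61-fold. Aif1, the calcium-binding protein Iba1 used to stain microglia, was at 25.5, 24.5, 23.6, 26.3 and 31.6 CPM in controls 12, 29, 71, 74 and 75 and at 33.3, 53.1, 66.8, 78.4 and 72.2 CPM in KO 21, 66, 68, 69 and 72. KO 21 was just above the highest control, the overall rise was 2.04-fold (adjusted p = 0.000228), and Aif1 was not called in the deeper libraries alone (log2 0.75, adjusted p = 0.104). P2ry12, the purine receptor of resting microglia and a gene outside the naming rule, was at 18.1 ± 2.99 CPM in controls and 18.9 ± 1.76 CPM in KO (adjusted p = 0.936).

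Of Fc and phagocytic receptors 8 of 15 tested were called higher and 0 lower (median 0.71), and 5 without KO 66. Fcer1g, the signalling chain of several Fc receptors, rose from 38.1 ± 4.21 to 88.9 ± 12.9 CPM and Fcgr3, an activating IgG receptor, from 35.0 ± 5.75 to 80.7 ± 21.9 CPM. In the Toll-like receptor list 2 of 7 were called (median 0.57). Tlr2, which senses bacterial lipoproteins, rose 3.03-fold, with a log2 fold-change of 1.22 in the deeper and 2.50 in the shallower libraries alone, though not past the threshold in the deeper ones (adjusted p = 0.148), and Ly86, a partner of the Toll-like receptor RP105, rose 1.89-fold. Of nucleic acid sensors 1 of 12 was called (median 0.32), Unc93b1 (1.58-fold, adjusted p = 0.0308), which carries Toll-like receptors to endosomes. KO 68, at 18.9 CPM, lay among the controls (14.6 to 22.7 CPM). The Unc93b1 call was lost when any of controls 12, 29 or 75 or KO 66, 69 or 72 was left out, with adjusted p from 0.0734 without KO 72 to 0.134 without control 75.

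Border-associated macrophages are resident cells of the meninges and perivascular spaces. Of their markers 0 of 3 tested were called, yet the summed level of the list, led by Pf4, was 24.2 to 30.2 CPM in the controls and 33.4 to 45.1 CPM in the KO mice, with no overlap. Pf4 itself, a platelet and macrophage chemokine, was at 9.96, 7.81, 10.2, 11.8 and 10.1 CPM in the controls and 9.37, 9.26, 16.1, 14.8 and 21.7 CPM in the KO mice, with KO 21 and KO 66 inside the control range, and Stab1, a scavenger receptor, at 6.93 ± 1.35 and 7.06 ± 0.917 CPM. Of the 5 members too low to test, Ms4a7 had 20 counts in the controls and 69 in the KO mice and F13a1, a coagulation factor subunit, 37 and 56, each CPM of a KO mouse above every control. The groups overlapped in the other members too low to test. The mannose receptor Mrc1 had 26 and 53 counts, with 0 in KO 69 and the other KO mice above every control, the scavenger receptor Cd163 21 and 27 and Clec10a 36 and 43. Ms4a7 passed the filter and was called without control 71, control 75 or KO 68 (log2 1.91, 2.07 and 2.10).

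Markers of blood-borne cells gave little to test. Of monocytes and neutrophils 0 of 1 and of T and NK cells 0 of 2, and no B cell marker passed the filter. The summed level of the T and NK list was 9.81 CPM in controls and 11.1 CPM in KO, led by Cd4. That of the monocyte and neutrophil list was 7.66 and 8.20 CPM, led by S100a9, and that of the B cell list 2.77 and 2.91 CPM, led by Cd79b.

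Outside the lists 54 genes were called, 45 higher and 9 lower, and those named here were picked out after their values were seen. Lag3, Cd22 and Cd274 (PD-L1), inhibitory receptors and a ligand best known from lymphocytes, rose 3.77-fold, 6.59-fold and 3.02-fold. The Cd274 call was lost without control 12 (adjusted p = 0.0605) or control 29 (adjusted p = 0.0568) and in each set alone, and Cd274 did not pass the filter on low counts without KO 21 or KO 66. Cd22 did not pass that filter without control 12, 29 or 74 or KO 21 or 66, and was called without each of the others. Slamf9 and Ly9, of the SLAM family of immune cell receptors, rose 3.42-fold and 4.43-fold. Each control held 1 to 4 counts of Cd22, 2 to 8 of Cd274 and of Ly9 and 5 to 15 of Slamf9. These genes passed the filter through the KO libraries, so their folds are inexact. Cyba, the p22 subunit of the phagocyte NADPH oxidase, rose 2.06-fold, and Hvcn1, the proton channel that works beside it, 2.22-fold. Tspo, the mitochondrial protein targeted by imaging ligands for activated microglia, rose 1.57-fold, and Ucp2, a mitochondrial carrier, 1.62-fold. A2m, a protease inhibitor, rose 1.95-fold, Slc14a1, a urea transporter of astrocytes, 1.53-fold and Etnppl, an astrocytic enzyme that breaks down phosphoethanolamine, 1.82-fold. The KO libraries of Tspo, Ucp2, A2m and Etnppl overlapped the controls, and those of the other genes of this group did not. In the deeper libraries alone Slamf9, Hvcn1, Tspo and Ucp2 were not called (adjusted p = 0.0668, 0.109, 0.415 and 0.0863), and in the shallower ones alone Ly9, A2m, Slc14a1 and Etnppl were not (adjusted p = 0.086, 0.0592, 0.0708 and 0.0638).

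A minority of the lysosomal genes rose, while the summed levels of both lysosomal lists were higher in every KO mouse than in any control. Of 40 hydrolases and cathepsins 4 were called higher and 0 lower (median log2 fold-change 0.18, 32 above 0), and of 31 lysosomal membrane proteins and channels 3 (median 0.14). The summed level of the hydrolases and cathepsins, led by Ctsd, was 3386 to 4209 CPM in the controls and 4277 to 4990 CPM in the KO mice. That of the membrane proteins, led by Lamp1, was 2062 to 2163 and 2316 to 2626 CPM. Ctss, the cathepsin of antigen-presenting cells, was at 121, 110.1, 112, 99.6 and 117 CPM in controls 12, 29, 71, 74 and 75 and at 308, 307, 279, 273 and 271 CPM in KO 21, 66, 68, 69 and 72. The spread within each group was small beside the 2.59-fold rise (log2 1.38 ± 0.08 SE, adjusted p = 2.8e-09). Of further cathepsins, Ctsz rose 1.80-fold and Ctsd 1.58-fold. For Ctsd, KO 21 at 841 CPM lay below the shallower controls 71 and 75 at 904 and 857 CPM. Ctsd was close to the fold threshold: without KO 66 it was 0.57 on the log2 scale, just short of it. The membrane genes called were Cd68 (2.65-fold), a scavenger receptor of macrophages, Slc11a1 (2.30-fold), a metal ion transporter of phagosomes, and Slc15a3 (2.09-fold), a peptide transporter. Slc11a1 was not called in the shallower libraries alone (log2 0.93, adjusted p = 0.06). Slc15a3 lost its call without any of controls 12, 29 or 74 or KO 66, 68 or 72, with adjusted p from 0.0539 without KO 72 to 0.177 without KO 66. Cd68, Ctsd and Ctsz also stand in the list of disease-associated microglia.

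Genes of the machinery that acidifies and renews lysosomes held no call, which in lists of this size is near the 1.2% called over all tested genes. In the vacuolar ATPase list 0 of 17 tested genes were called (median 0.06) and in the autophagy and mTOR list 0 of 40 (median 0.02). Sqstm1, the cargo receptor p62, was at 712 ± 81.5 CPM in controls and 773 ± 74.4 CPM in KO (adjusted p = 0.868), and Gabarapl1, an ATG8 protein of autophagosomes, at 1166 ± 71.3 and 1247 ± 136 CPM (adjusted p = 0.921). In the same way 0 of 8 genes of iron handling, 0 of 14 heat shock and unfolded protein response genes and 0 of 14 immediate early genes were called, with medians of 0.28, −0.0049 and −0.13.

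Some genes of reactive astrocytes rose, and general astrocyte markers held no call. Gfap, the intermediate filament that marks reactive astrocytes, was at 213, 211, 189, 203 and 194 CPM in controls 12, 29, 71, 74 and 75. It was at 522, 616, 665, 548 and 543 CPM in KO 21, 66, 68, 69 and 72. All KO mice were far above all controls, a 2.87-fold rise (log2 1.52 ± 0.09 SE, adjusted p = 2.21e-09). Serpina3n, a secreted protease inhibitor, rose 3.23-fold and Timp1, an inhibitor of matrix metalloproteinases, 3.38-fold, so that 3 of 10 tested reactive astrocyte genes were called (median 0.53). In the deeper libraries alone Timp1 was not called (log2 1.77, adjusted p = 0.057). Of general astrocyte markers 0 of 13 were called, with a median of 0.03, and Slc1a2, the main glutamate transporter, was at 1075 ± 191 CPM in controls and 1002 ± 208 CPM in KO (adjusted p = 0.991).

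**Figure D4:**
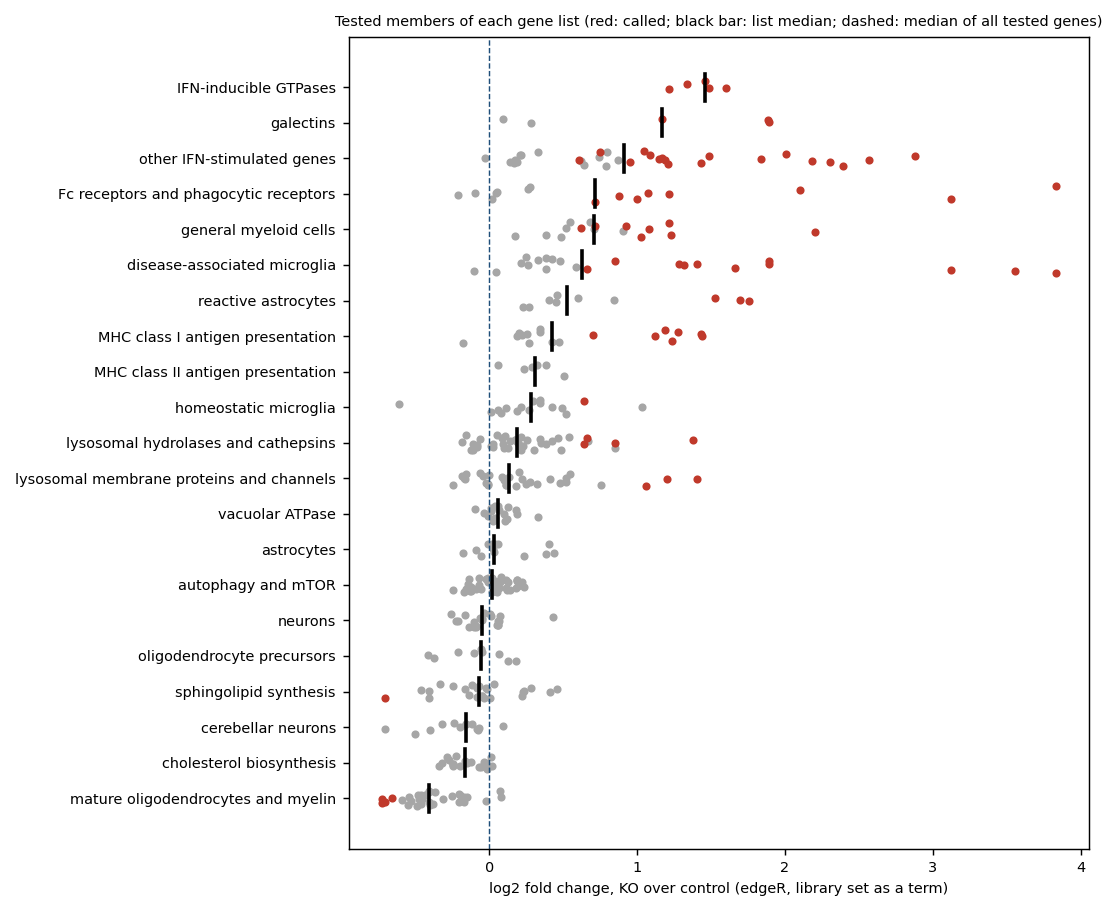
Log2 fold-change of KO over control (x axis) for each tested member of 21 of the gene lists (rows), with called genes in red, other tested genes in grey, the list median as a black bar and the median of all 11227 tested genes as a dashed line. Among these rows the medians run from 1.46 in the IFN-inducible GTPases to −0.41 in mature oligodendrocytes and myelin, and the rows of neurons, astrocytes, autophagy and vacuolar ATPase hold no called gene.

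Genes of myelin and its lipids were on the lower side. Of 32 tested markers of mature oligodendrocytes and myelin 4 were called lower and 0 higher, 12 were lower by adjusted p alone, and 2 had a log2 fold-change above 0 (median −0.41). The count was 2 without KO 21, 7 without KO 66 and 8 with the length profile as a term. Mog, a glycoprotein of the outer myelin surface, was at 172, 215, 148, 168 and 157 CPM in controls 12, 29, 71, 74 and 75 and at 82.9, 133, 103, 108 and 109 CPM in KO 21, 66, 68, 69 and 72. KO 21 was the lowest, no KO mouse reached a control, and the level fell by 0.66 ± 0.12 on the log2 scale (SE, adjusted p = 0.00272). Without KO 21 its value was −0.50 and fell short of the fold threshold, as it did in the shallower libraries alone (−0.50) and, among alternatives chosen after the data were seen, without the 3 libraries with high Gapdh (−0.53). In the deeper libraries alone Mog was at −0.79 with an adjusted p of 0.0662. Gpr37, an orphan receptor that restrains oligodendrocyte differentiation, was at 92.5, 88.3, 55.9, 83.9 and 77.4 CPM in the controls and at 51.2, 58.1, 39.3, 35.0 and 44.3 CPM in the KO mice, in the same order of animals. The groups overlapped through control 71 and KO 66 but not within either set, and its level fell by 0.73 ± 0.10 (adjusted p = 0.0002), a call made under all 22 alternative settings.

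Fa2h, which makes the hydroxylated sphingolipids of myelin, fell by 0.71 on the log2 scale, and Opalin, a sialylated membrane protein of oligodendrocytes, by 0.72. Fa2h was not called in the deeper libraries alone (adjusted p = 0.0827) or with no set term (adjusted p = 0.0631). For Opalin the difference was −1.15 in the deeper and −0.28 in the shallower set. KO 21 and KO 66 had 42.6 and 60.3 CPM beside 103 to 121 CPM in the deeper controls, and KO 68, KO 69 and KO 72 had 105, 106 and 119.8 CPM beside 133 and 134 CPM. The genotype by set interaction of Opalin had an unadjusted p of 0.000131 by edgeR and did not pass after adjustment. The Opalin call was lost with no set term (adjusted p = 0.802) and in the shallower libraries alone (log2 −0.26, adjusted p = 0.155). Without KO 21 (−0.52) or without the 3 libraries with high Gapdh (−0.54) it fell short of the fold threshold. Mbp, a main structural protein of myelin added outside the naming rule, was not called, at 6782 ± 786 CPM in controls and 6454 ± 1462 CPM in KO (adjusted p = 0.706). In the list of precursor cells 0 of 9 were called (median −0.05). Olig1, a transcription factor of the lineage, was at 273 ± 20.1 CPM in controls and 213 ± 14.9 CPM in KO with no overlap (adjusted p = 0.0162), short of the fold threshold at log2 −0.38.

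Of lipid genes, the 21 tested members of cholesterol synthesis held no call, and 2 of them lay above 0 (median −0.17). Hmgcs1, an early enzyme of the pathway, was at 255 ± 9.75 CPM in controls and 219.7 ± 17.6 CPM in KO (adjusted p = 0.262). In the fatty acid list 1 of 20 was called lower (median −0.13). This was Scd1, the stearoyl-CoA desaturase, at 94.4, 112, 91.0, 119 and 91.7 CPM in controls 12, 29, 71, 74 and 75 and 66.8, 65.97, 66.8, 64.5 and 66.5 CPM in KO 21, 66, 68, 69 and 72. The KO values were nearly the same in all 5 mice and below every control, and the level fell by 0.60 on the log2 scale (adjusted p = 0.000432). It was near the fold threshold, and leaving out control 29, control 74, KO 21 or KO 66 took it to between −0.57 (KO 21) and −0.55 (control 74). In the sphingolipid list 1 of 27, Fa2h, was called (median −0.07), and of 14 genes of apolipoproteins, lipid efflux and lipid droplets 0 were called (median 0.10). Apoc1 was called without KO 21 (log2 0.63) or KO 72 (log2 0.67). Apoe, the main apolipoprotein of the brain, was at 5343 ± 959.6 CPM in controls and 7312 ± 1907 CPM in KO (adjusted p = 0.192).

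The other genes called lower were Lpar1, Cyp2j12, Eps8l2, Shtn1, Itgb4, Adamtsl4, Plxnb3 and Apln. Lpar1, a receptor for lysophosphatidic acid that oligodendrocytes express, fell by 0.65 on the log2 scale (adjusted p = 0.00481). Its groups overlapped, with KO 69 at 71.2 CPM above control 71 at 68.8 CPM. The call was lost without KO 21 (−0.52), with no set term (adjusted p = 0.126) and against the heterozygous controls alone (adjusted p = 0.0804). It was also lost in the shallower libraries alone (−0.40, adjusted p = 0.0758). Cyp2j12, a cytochrome P450, had the largest fall after Mcoln1, from 4.38 ± 0.669 to 1.55 ± 0.524 CPM (log2 −1.39, adjusted p = 0.00941). Its KO libraries held at most 14 counts. Of the 10 fits that left out 1 library, 8 tested Cyp2j12 and 7 called it, and without KO 66 its adjusted p was 0.057. Apln, the peptide ligand apelin, lost its call without any 1 library other than control 71 and KO 66, and Plxnb3, a semaphorin receptor, without any other than control 75, KO 21 and KO 72. Their adjusted p in the fits that lost the call ran up to 0.116 for Apln, without control 12, and 0.171 for Plxnb3, without control 71. Shtn1, an axon growth protein, lost it without control 12, control 29 or KO 66 (adjusted p 0.0689, 0.0745 and 0.0851), and Eps8l2, an actin regulator, without control 75 (adjusted p = 0.0737). Itgb4, an integrin chain, lost it without control 71, control 75, KO 68 or KO 69 (adjusted p up to 0.0953), and Adamtsl4, a matrix protein, without control 12, 29 or 75 or KO 66, 68 or 69 (adjusted p up to 0.0808). In the deeper libraries alone Eps8l2, Itgb4 and Cyp2j12 were not called (adjusted p = 0.438, 0.552 and 0.319). Shtn1, Adamtsl4, Plxnb3 and Apln were called in neither set alone. With no set term Eps8l2, Shtn1, Itgb4, Adamtsl4, Plxnb3 and Apln lost the call (adjusted p 0.0794 to 0.281). Against the heterozygous controls alone Cyp2j12, Eps8l2, Itgb4, Adamtsl4 and Apln lost it (adjusted p 0.0551 to 0.184).

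Neuronal lists held no call, which in lists of this size is near the 1.2% called over all tested genes. In the list of general neuronal markers 0 of 22 were called (median −0.05, though without KO 21 Vip, a neuropeptide, was called higher at log2 0.63), in that of striatal neurons 0 of 8 (median 0.06) and in that of cerebellar neurons 0 of 13 (median −0.16, 1 above 0). Pcp2, the Purkinje cell gene near Mcoln1, was at 667, 685, 662, 792 and 765 CPM in controls 12, 29, 71, 74 and 75 and at 304, 518, 718, 515 and 623 CPM in KO 21, 66, 68, 69 and 72. KO 68 lay among the controls and the other KO mice below them, and the log2 fold-change of −0.51 ± 0.14 SE did not pass (adjusted p = 0.106). With the length profile as a term it was −0.69 with an adjusted p of 5.28e-08. Choroid plexus markers (0 of 10, median 0.33), endothelial cells and pericytes (0 of 13, median 0.08) and meningeal fibroblasts (0 of 6, median 0.14) held no call either. Alas2, the single red blood cell marker tested, was at 31.6 ± 8.69 CPM in controls and 22.3 ± 5.51 CPM in KO (adjusted p = 0.165). It was called lower with the length profile as a term (log2 −0.73, adjusted p = 0.00777) and with sex-linked reads as a term (−0.69, adjusted p = 0.0242).

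Of galectins, lectins that bind beta-galactosides, 2 of 4 tested were called, and so was the galectin-binding glycoprotein Lgals3bp of the same list: Lgals3 rose 3.72-fold, Lgals9 2.25-fold and Lgals3bp 3.70-fold, with no overlap between the groups. Lgals1 (86.5 ± 12.5 CPM in controls and 113 ± 25.4 CPM in KO) and Lgals8 (22.3 ± 3.69 and 23.02 ± 5.68 CPM) were not called.

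Whether the genotypes differed unequally in the 2 library sets was also tested. Of 11227 genes 1 (0.00891%) was called for the interaction, Glg1, a Golgi glycoprotein. It was at 26.7, 24.0 and 30.6 CPM in the deeper controls and at 75.3 and 40.4 CPM in KO 21 and KO 66, against 39.7 and 43.8 CPM in the shallower controls and 25.6, 21.9 and 24.2 CPM in KO 68, KO 69 and KO 72. The KO mice were higher in the deeper set and lower in the shallower one (log2 1.93 ± 0.30 SE, adjusted p = 0.0185). The call was lost in 7 of 10 fits that left out 1 library (controls 12, 29, 71 and 75 and KO 68, 69 and 72), with adjusted p from 0.0581 to 0.164 and log2 values from 1.85 to 1.97, and DESeq2 gave Glg1 no adjusted p. An unadjusted p under 0.05 was reached by 1739 genes, 15.5% of those tested, and by 18 of the 135 called genes. Across genes, the Spearman correlation of transcript length with the interaction was 0.50, so long genes tended to be relatively higher in the KO mice of the deeper set. Without KO 66, which leaves KO 21 alone as the deeper KO library and assumes that it varies like the rest, the interaction called 1389 genes, and without KO 21 it called 1, with Glg1 at 1.40 on the log2 scale.

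Between the 3 Mcoln1+/- and the 2 Mcoln1+/+ controls 5 of 11791 genes (0.0424%) were called: Gapdh, Rdx, Rps4x, Rpl14-ps1 and Xist. None of these was among the 135 genes. Gapdh and Rpl14-ps1 stood out in control 74 and Xist was read in controls 12 and 29. Of the 124 of the 135 that were tested here, 64 differed between heterozygous and wild-type controls in the same direction as between KO and control. Mcoln1 was at 38.7, 43.0 and 51.3 CPM in the heterozygous controls and 40.3 and 52.1 CPM in the wild-type ones, which overlapped.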

How the data were processed

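RNA of homogenized brain was sequenced in a bulk variation of MARS-seq. The authors deposited raw read counts per gene, made from uniquely mapped reads aligned with STAR to mm10, and the submitters' processing notes also name cutadapt and HTSeq, with versions not given in the sources used here. Normalized tables and columns holding the authors' own fold changes and p-values were not used. Of 13958 genes, 11227 passed edgeR's filterByExpr. KO and control were compared with edgeR 4.0.16 (R 4.3.3; TMM scaling, quasi-likelihood test, library set as a term, Benjamini-Hochberg adjustment). DESeq2 1.42.0, other filters, single sets, thinned counts and leaving out each library were alternatives. On simulated counts for this comparison (11078 genes), 88.7% of 97 genes changed 2-fold and 100% of 92 changed 4-fold were called, with 7 of 10889 unchanged genes. The 24 gene names stored as dates were kept as they stand. Each library was 1 mouse.

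Genes were named by a rule: Mcoln1, up to 4 called genes of each list in order of p, the 2 tested genes of highest CPM of lists with none called, all genes called lower, the 20 called higher with the lowest p outside the study's own IFN list, the 5 largest rises, and the tested galectins. Members and lists were chosen with earlier results of these data known, and genes outside the rule are marked in the text. Coordinates are from GENCODE M21 on GRCm38 and promoters from RefSeq on GRCm38.p6. Some genes and motifs covered by the lists and searches are not reported here.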

Additional observations from a re-analysis of the deposited data

Results flagged for a closer look

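In 196 groups of 5 libraries, the extreme library was set against the range of the others by Dixon's criterion, which chance alone passes in about 5% of groups, and 11 groups passed, 5 of them through KO 21. KO 21 was low for Atp6v1f, a vacuolar ATPase subunit (477 CPM, the other KO mice 732 to 815), for Cst7 (15.2 CPM, others 21.3 to 21.9), for Ctsz (124 CPM, others 151 to 159), for Fdps, an enzyme of cholesterol synthesis (116 CPM, others 150.1 to 159.6), and for Igfbp2 (122 CPM, others 186 to 208). KO 66 was high for H2-K1 (195 CPM, others 140.3 to 155). Among the controls, control 74 was high for Gapdh (665 CPM, others 17.0 to 27.9) and low for Stab1 (4.58 CPM, others 7.09 to 7.85). Control 75 was low for Cd4 (2.78 CPM, others 6.27 to 7.26) and for Hspa8 (2442 CPM, others 2979 to 3173), and control 71 was high for Plxnb3 (29.6 CPM, others 17.4 to 20.5). For Glg1 the interaction of genotype with the library set was 1.93 on the log2 scale with an adjusted p of 0.0185 by edgeR, a call lost in 7 of 10 fits that left out 1 library (adjusted p up to 0.164, without control 75).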

How the results depend on the processing

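The count of genes called in KO against control (135, 14 of them lower) was 109 to 206 when 1 library was left out, with 9 to 29 lower and the highest values without KO 21. It was 248 in the shallower libraries alone (84 lower). The genes called lower numbered 5 with no set term and 9 against the heterozygous controls alone. Alternatives chosen after the data were seen gave 204 called and 34 lower without the 3 libraries with high Gapdh, and 33 lower with the length profile as a term. DESeq2 called 139. Of the 135, 90 were called whichever library was left out and 63 in each set alone. No called gene that the text names by rule changed sign under the alternatives, whereas some named genes that were not called did, such as Atp6v1f (−0.18 to 0.33) and Lgals8 (−0.02 to 0.26). The interaction with the set gave 83 genes by DESeq2, 6 with thinned counts and 0 to 1389 with 1 library left out. The comparison of heterozygous with wild-type controls gave 1 gene by DESeq2, 0 with no set term and 8 to 44 with 1 control left out, where without control 74 or 75 the lone wild-type sample is assumed to vary like the other controls. The cause of these shifts was not tested. No paired analysis was possible because the 7-month groups share no animal numbers. Depth limits low genes: 3 counts corresponded to 0.446 CPM in the deepest and 1.42 CPM in the coarsest library.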
